A study of Homo sapiens with 4 samples.

Results

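The 9 YAP and TAZ target genes CTGF, CYR61, NT5E, F3, CRIM1, AMOTL2, AJUBA, LATS2 and ANKRD1 were taken by symbol from a table of 57746 genes, and all 9 were found. Each gene has a value in 4 human colorectal cancer cell lines, with 1 RNA library per line. DLD1 is the parental line and is labelled epithelial. SA came from colonies of DLD1 in soft agar and SPH from DLD1 colonospheres, both labelled mesenchymal. METS is labelled epithelial and was established from a lung metastasis that DLD1 cells formed as a xenograft. No genotype, drug or transgene is given for any of them, and all were kept in the same serum-containing medium. Whether a derived line is a single clone is not given in the sources used here, and METS alone had grown in an animal host.

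YAP and its paralogue TAZ are transcriptional coactivators that the Hippo kinases hold in the cytoplasm by phosphorylation. In the nucleus they bind TEAD factors and turn on genes for matrix signalling, adhesion and growth, together with genes that feed back on the pathway. In the intestine they are known for their part in regeneration and in tumours with active WNT signalling, and cell spreading and a stiff matrix are known to raise the output of their target genes.

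The proteins fall into 4 roles. CTGF and CYR61 are secreted matricellular proteins of the CCN family. NT5E, the ectonucleotidase CD73, F3, the tissue factor that starts coagulation, and CRIM1, a transmembrane protein that binds bone morphogenetic proteins, sit at the cell surface. AMOTL2, AJUBA and LATS2 act inside the Hippo pathway: AMOTL2 is an angiomotin that binds YAP, AJUBA is a LIM protein that restrains LATS kinases, and LATS2 is a kinase that phosphorylates YAP and TAZ. ANKRD1 is a nuclear and sarcomeric ankyrin repeat protein.

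TEAD factors recognise a short element whose core is GGAATG, read as CATTCC on the other strand. RefSeq promoter windows (GRCh38.p14, 250 bases before to 50 after a transcription start) were matched for 7 of the 9 genes, which have 9 windows because AMOTL2 and AJUBA have 2 starts each. CYR61 and CRIM1 were not matched. The sequences upstream of the start are shown for CTGF, NT5E and ANKRD1, the genes lowest in METS relative to DLD1, in 5′ to 3′ order of the gene's strand. Capitals mark the TEAD core and the AP-1 element TGANTCA, which was searched because AP-1 factors bind many elements together with TEAD. CTGF lies at chr6:131951373-131951622 on the minus strand, NT5E at chr6:85449833-85450082 on the plus strand and ANKRD1 at chr10:90921088-90921337 on the minus strand. These coordinates are of GRCh38.p14 and not of hg19, the build of the expression values.
CTGF: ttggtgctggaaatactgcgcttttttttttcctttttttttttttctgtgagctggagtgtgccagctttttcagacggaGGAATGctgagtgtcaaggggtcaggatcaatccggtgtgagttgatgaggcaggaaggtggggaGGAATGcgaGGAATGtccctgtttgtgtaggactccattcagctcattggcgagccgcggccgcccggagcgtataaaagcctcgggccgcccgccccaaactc
ANKRD1: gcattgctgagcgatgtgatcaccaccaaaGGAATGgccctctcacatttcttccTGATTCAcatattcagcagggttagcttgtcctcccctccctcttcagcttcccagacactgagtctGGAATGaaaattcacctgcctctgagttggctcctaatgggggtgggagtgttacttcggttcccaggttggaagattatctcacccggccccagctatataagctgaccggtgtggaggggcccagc
NT5E: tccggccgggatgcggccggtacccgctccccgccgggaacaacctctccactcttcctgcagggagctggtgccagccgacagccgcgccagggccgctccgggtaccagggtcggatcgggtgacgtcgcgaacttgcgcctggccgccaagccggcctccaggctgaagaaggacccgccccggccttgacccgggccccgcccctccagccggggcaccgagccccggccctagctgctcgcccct

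The CTGF window held 3 TEAD cores, whose first bases lay 169, 104 and 95 bases upstream of the start. ANKRD1 held 2, at 220 and 128 bases upstream, with an AP-1 element between them at 195. NT5E held neither motif in its window. Single TEAD cores lay 69 bases upstream of the second AMOTL2 start, 59 upstream of the second AJUBA start and 10 bases into the LATS2 transcript, and F3 held 2 AP-1 elements at 223 and 210 bases upstream. Both strands were searched, and no match overlapped another although the 2 motifs can share a pair of letters. Of 35116 promoter windows of this length, 14.0% held at least 1 TEAD core, 1.36% at least 2 and 0.125% at least 3, while 7.71% held at least 1 AP-1 element and 0.515% at least 2. A match describes the letters in the window and shows no binding.

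**Figure D1:**
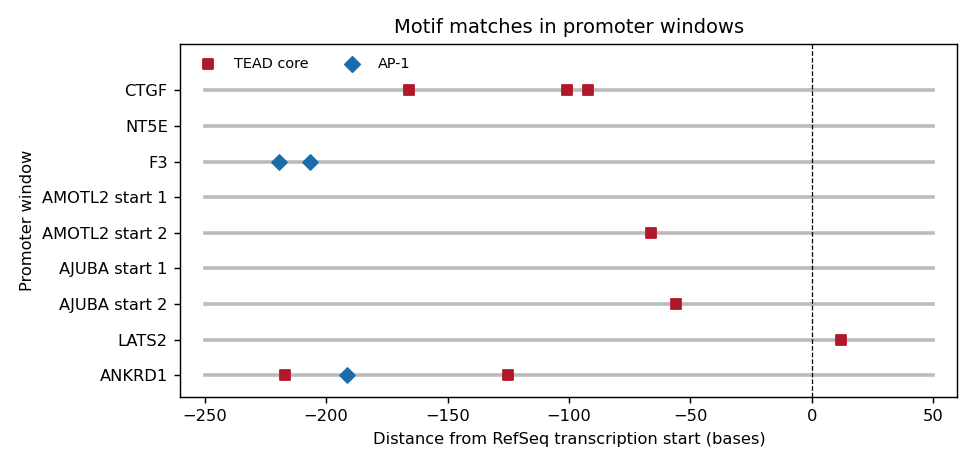
Positions of TEAD core (squares) and AP-1 (diamonds) matches in the 9 RefSeq promoter windows of 7 genes, as distance in bases from the transcription start (dashed line). CTGF has 3 TEAD cores and ANKRD1 has 2 with 1 AP-1 element between them, whereas NT5E has no match.

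Values are in RPKM, reads scaled to gene length and library size, and differences between lines are on the scale of log2(RPKM + 1). Low values make a change look smaller on this scale. Unless a sentence names the lines otherwise, a row of 4 values runs from DLD1 through SA and SPH to METS. Between 10920 and 11238 genes reached 1 RPKM per library. The spacing of low values put 1 RPKM of a transcript of 1 kb at about 48.5 to 54.0 reads in the 4 libraries, so the target genes rested on about 224 reads (ANKRD1 in METS) to 9558 reads (CRIM1 in DLD1). Counting error of the log2 difference between METS and DLD1 was then about 0.11 for ANKRD1, 0.084 for CTGF and at most 0.044 for the rest. It covers the counting of reads only, because each line has 1 library and the spread between cultures is not measured. The labelled classes are separate in VIM, the mesenchymal intermediate filament, which measured 12.5 (SA) and 12.2 (SPH) RPKM against 0.18 (DLD1) and 0.22 (METS). VIM was named after its values were seen. All 5 epithelial markers were present in all 4 lines. EPCAM stood at 212, 222, 231 and 263 RPKM and CDX2 at 31.9, 31.4, 35.99 and 27.6, and neither divided the lines by class. CDH1 stood at 115, 94.5, 97.3 and 103 RPKM, lower in SA and SPH. The keratins KRT8 (817, 565, 587 and 1084 RPKM) and KRT18 (680, 476, 505 and 865 RPKM) were lowest in SA and SPH and highest in METS, and neither passed a test (limma-trend). Their part in the results on the target genes was not tested. Summed levels of 6 fibroblast markers stood at 0.22 to 0.49 RPKM.

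All 9 target genes were lower in METS than in DLD1, 8 were lower in SPH and 6 in SA. Of all genes that reached 1 RPKM in either line, 54.9% were lower in METS, 43.6% in SPH and 44.4% in SA. The 9 genes were chosen with earlier results of these data known. Shares over all genes, here and below, therefore describe the genes and do not test them as a set. The median difference of the 9 genes was -0.67 in METS, -0.24 in SPH and -0.23 in SA, beside medians over all genes of -0.03, 0.03 and 0.03. The 3 differences share the DLD1 library, and its own error enters each of them. DLD1 was the highest of the 4 lines for 6 of the 9 genes (21.4% of all genes), METS the lowest for 5 (39.2%) and SPH the lowest for 4 (19.9%). AMOTL2 counts among the 5, and LATS2 among the 4, by a margin below counting error. AMOTL2 was no longer lowest in METS with median-of-ratios factors (4 genes) or with GC correction (4 genes, and 5 lowest in SPH). Fewer cells that express a gene and less RNA per cell cannot be told apart in these bulk libraries.

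**Figure D2:**
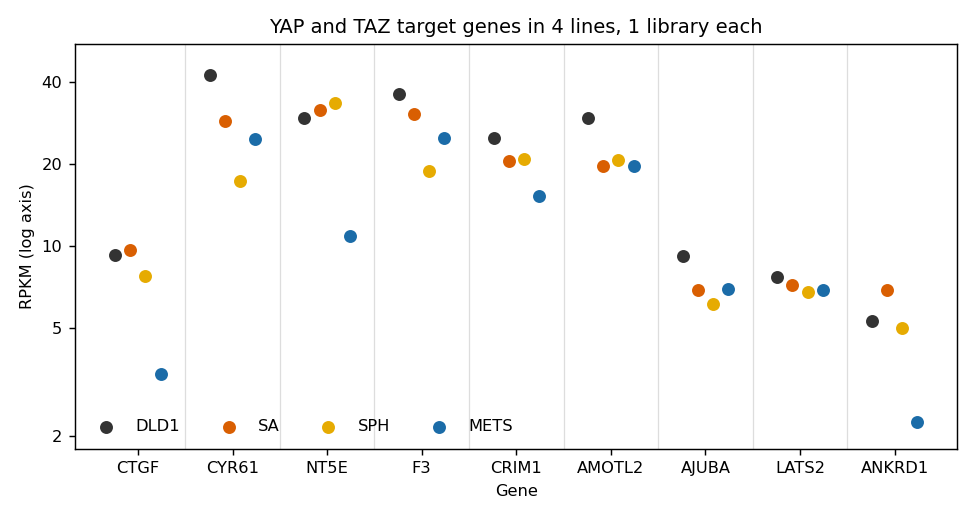
RPKM (log axis) of the 9 genes in DLD1, SA, SPH and METS, with 1 point per library. METS lies well below the other lines for CTGF, NT5E and ANKRD1, SPH is lowest for CYR61 and F3, and the LATS2 points nearly coincide.

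Among the secreted proteins, CTGF measured 9.26 RPKM in the parental line, 9.65 in SA, 7.77 in SPH and 3.38 in METS. The 3 lines that had not passed through a host lay close together, and METS was at 36.5% of the DLD1 value. Its log2 difference from DLD1 was -1.23. CYR61, which shares the modular structure of CTGF, did not follow it: it measured 42.4 RPKM in the parental line, 28.7 in SA, 17.2 in SPH and 24.6 in METS. CYR61 was highest in the parental line and lowest in SPH, at 40.7% of DLD1 (log2 difference -1.25), with METS between the mesenchymal lines. In DLD1 it lay above 91.8% of the genes that reached 1 RPKM. Of the other CCN genes, NOV alone reached 1 RPKM, at 0.58, 1.09, 1.25 and 1.98 RPKM, lowest in DLD1 and highest in METS.

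At the cell surface, NT5E measured 29.4 RPKM in the parental line, 31.5 in SA, 33.4 in SPH and 10.8 in METS. It was slightly above DLD1 in both mesenchymal lines and at 36.8% of DLD1 in METS, a log2 difference of -1.36. As a share of DLD1, the METS levels of NT5E and CTGF were nearly the same. F3 measured 35.99, 30.4, 18.8 and 24.8 RPKM, with the same order of lines as CYR61. SPH was at 52.3% of DLD1 for F3 (-0.90) and METS at 69.0% (-0.52). CRIM1 measured 24.9, 20.4, 20.9 and 15.2 RPKM. The 2 mesenchymal lines were close to each other for CRIM1, and METS was lowest at 61.2% of DLD1 (-0.67).

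The 3 genes that act on the Hippo pathway itself varied least. AMOTL2 stood at 29.5 RPKM in DLD1 and at 19.6, 20.6 and 19.6 in SA, SPH and METS, so the derived lines shared a level of 66.4% to 69.8% of the parental line. AJUBA had the same shape, at 9.14 RPKM in DLD1 and 6.90, 6.13 and 6.93 in SA, SPH and METS. LATS2 stood at 7.71, 7.17, 6.79 and 6.91 RPKM, with a ratio of 1.14 between its highest and lowest line against 3.08 for NT5E. The nuclear protein gene ANKRD1 stood at 5.29 RPKM in the parental line, 6.89 in SA, 4.99 in SPH and 2.25 in METS. It was highest in SA, at 130% of DLD1, and lowest in METS, at 42.5% (-0.95), the order seen for CTGF with DLD1 and SPH nearly level.

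By the fixed rule of 2-fold on the log2 scale, CTGF and NT5E were lower in METS than in DLD1, 2 of 9 genes against 0.896% of all genes. At 1.5-fold, CYR61, CRIM1 and ANKRD1 joined them, 5 of 9 against 3.2%. In SPH, CYR61 passed the 2-fold rule (1 of 9 against 0.542%), and in SA none did (0 of 9 against 0.238%). No target gene was 2-fold higher than DLD1 in any line. With a pseudocount of 5 in place of 1, the difference of CTGF between METS and DLD1 shrank to -0.77 and that of ANKRD1 to -0.51, and with 0.1 they were -1.43 and -1.20.

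**Figure D3:**
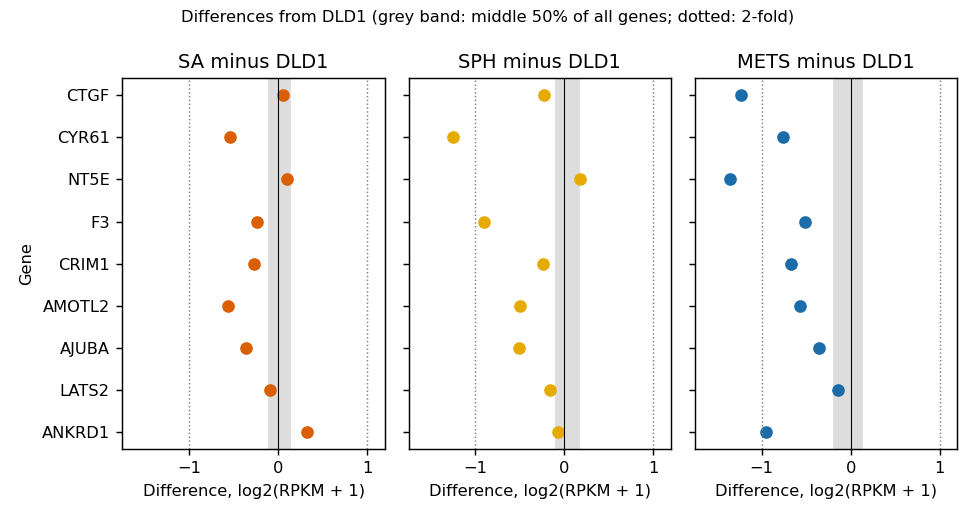
Differences of the 9 genes from DLD1 in SA, SPH and METS on the scale of log2(RPKM + 1), with the middle 50% of all genes in grey and 2-fold marked by dotted lines. All 9 points lie left of 0 in METS, where CTGF (-1.23) and NT5E (-1.36) pass 2-fold, and CYR61 (-1.25) passes it in SPH.

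METS was then compared with DLD1, SA and SPH as 3 lines that had not grown in a host, with limma-trend over 11664 genes. In log2 units with its SE, NT5E fell by 1.45 ± 0.11 (limma-trend, adjusted p = 0.0124) and CTGF fell by 1.17 ± 0.14 (limma-trend, adjusted p = 0.0307). Both lay below each of the 3 other lines. They were 2 of 9 target genes lower at adjusted p under 0.05, against 0.514% of all genes tested. ANKRD1 had a difference of -1.04 ± 0.17 and did not pass (adjusted p = 0.072, limma-trend), nor did CRIM1 at -0.50 ± 0.14 (adjusted p = 0.19, limma-trend). The differences of CYR61, AMOTL2, AJUBA, LATS2 and F3 lay between -0.21 and -0.05, with adjusted p from 0.69 to 0.91 (limma-trend).

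The p-values measure the spread among 3 different lines, and the single METS library is assumed to vary like them. Since the target genes were chosen with earlier results known, their count beside the share over all genes is a description only. The call for NT5E held under 8 of 10 other settings (adjusted p from 8.4e-04 to 0.23, limma) and that for CTGF under 5 of 10 (0.0013 to 0.24). CTGF missed the threshold with median-of-ratios factors (-1.10, adjusted p = 0.053), with GC correction (-1.11, 0.055) and without the trend (-1.17, 0.058), where its log2 difference changed little. Both calls were lost without the SA library (NT5E -1.45, adjusted p = 0.23, and CTGF -1.11, adjusted p = 0.24, limma-trend), where no gene passed in all and 1196 had an unadjusted p under 0.05, and with no filter on low values. ANKRD1 passed without DLD1 (adjusted p = 0.0485, limma-trend) or without SPH (0.0062), within a range of 0.0062 to 0.30 over 10 settings.

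The labelled classes were compared next, SA and SPH against DLD1 and METS. None of the 9 target genes passed (limma-trend, adjusted p from 0.67 to 0.96, with 0 of 9 at an unadjusted p under 0.05), while 0.355% of 11262 genes did. NT5E differed by 0.82 ± 0.40, ANKRD1 by 0.60 ± 0.31, CTGF by 0.53 ± 0.38 and CRIM1 by 0.08 ± 0.22 on the log2 scale, with the mesenchymal lines on the higher side. CYR61 differed by -0.52 ± 0.31 and F3 by -0.31 ± 0.26, with the mesenchymal lines on the lower side. For NT5E, CTGF and ANKRD1 the 2 epithelial lines were themselves far apart, with DLD1 near SA and SPH. Without the DLD1 library, NT5E (1.5, adjusted p = 0.0062, limma-trend) and CTGF (1.14, adjusted p = 0.0268) passed, in a fit where METS is the lone epithelial library and the spread is that between SA and SPH, so that these values restate the low METS level. Without METS, the differences shrank to 0.14 for NT5E and 0.13 for ANKRD1, and those of CTGF and CRIM1 turned to -0.086 and -0.26. CYR61 ranged from -0.90 to -0.13 with single libraries left out.

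A wider list of 22 YAP and TAZ targets used as a signature across cancers holds 8 of the 9 genes and 14 others. Of those 14, 11 reached 1 RPKM, and 5 of them were lower and 6 higher in METS than in DLD1 with a median difference of 0.02. AXL, a receptor tyrosine kinase, passed the class test, at 0.28, 1.90, 1.5 and 0.15 RPKM (log2 difference 1.15 ± 0.14, adjusted p = 0.0497, limma-trend). It entered that test only through SA and SPH, the lines in which it reached 1 RPKM, so the call is no independent support for a difference. It was the 1 gene of the 18 tested from that list that passed in this comparison, and it was near 0 in METS as in DLD1. TGFB2, a TGF-beta ligand named here after its values were seen, was highest in METS, at 5.99, 9.09, 8.15 and 12.6 RPKM. MYOF, a ferlin of the plasma membrane that was also named after its values were seen, stood at 42.8, 32.6, 34.5 and 37.8 RPKM, highest in DLD1 as CYR61 was.

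The coactivators themselves varied little. YAP1 measured 29.6, 32.3, 29.2 and 28.0 RPKM, and WWTR1, which encodes TAZ, at 0.90, 1.31, 1.09 and 0.94. TEAD1 stood at 17.1, 16.3, 14.6 and 19.95 RPKM and TEAD4 at 17.4, 17.0, 15.1 and 15.5. TEAD2 was higher in each derived line (6.78 RPKM in DLD1, then 8.86, 10.8 and 9.25), and TEAD3 was lower (11.4, then 8.73, 10.5 and 8.79). Among VGLL cofactors, which compete for TEAD, VGLL3 had the widest range, at 1.31, 0.58, 0.30 and 1.04 RPKM. None of the 8 measured genes of this list passed either test, and their median difference between METS and DLD1 was -0.02. Levels of mRNA do not show how much YAP or TAZ protein was in the nucleus.

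Of 15 genes of the Hippo kinase core, 7 were lower and 7 higher in METS than in DLD1, with a median difference of 0.00. The scaffold SAV1, which holds MST kinases to LATS, had the widest range, at 11.4, 8.52, 7.63 and 7.21 RPKM. The KIBRA family genes WWC1 (13.6, 10.9, 10.0 and 10.7 RPKM) and WWC2 (3.54, 2.71, 2.60 and 2.34) were likewise highest in DLD1, as were AMOTL2 and AJUBA. MOB1B, a LATS cofactor, stood at 3.51, 3.40, 3.01 and 4.13 RPKM. Of 8 measured junction and polarity regulators the atypical cadherin FAT1 varied most. It stood at 66.6, 68.1, 71.9 and 47.9 RPKM, lowest in METS and slightly higher in the mesenchymal lines, the order of lines seen for NT5E. It did not pass against the 3 other lines (-0.51 ± 0.11, adjusted p = 0.11, limma-trend). AMOT (1.66, 1.47, 1.32 and 1.21 RPKM) and the phosphatase PTPN14 (2.38, 2.26, 2.12 and 2.75) were low in all lines, and the polarity gene CRB3 lay between 19.9 and 24.2 RPKM. No gene of the kinase core or of the junction list passed either test (limma-trend).

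**Figure D4:**
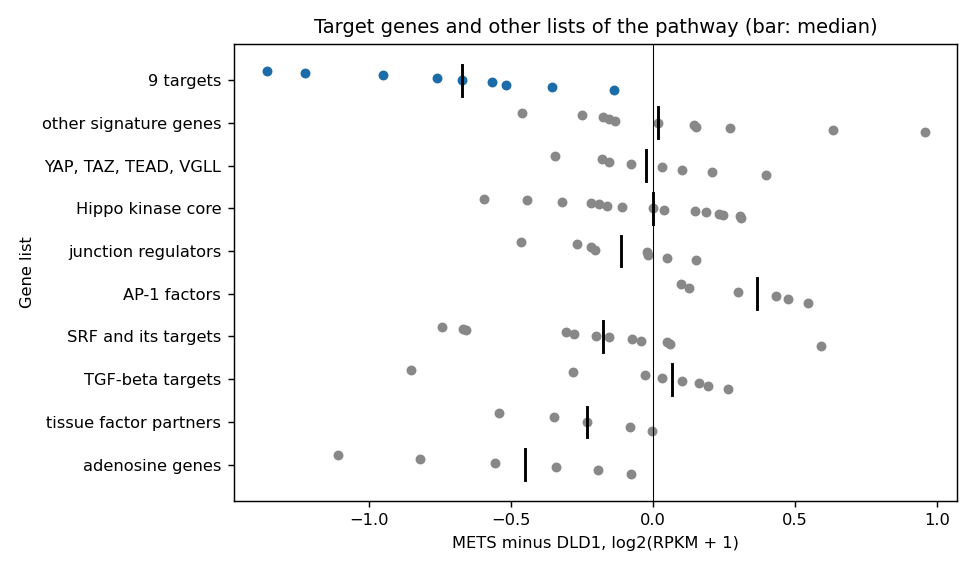
Difference between METS and DLD1 on the scale of log2(RPKM + 1) for each gene that reached 1 RPKM, by list, with the median of a list as a black bar. The 9 targets have a median of -0.67, the other 11 signature genes 0.02, the coactivators and TEAD factors -0.02, the kinase core 0.00 and the AP-1 factors 0.37.

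Further lists held AP-1 factors and genes around the serum response factor SRF. All 6 measured AP-1 factors were higher in METS than in DLD1 (median 0.37), opposite in sign to the 9 target genes. Over all genes, 5042 of 11275 were higher in METS. The difference was small for some factors, such as ATF3 (0.13). JUN stood at 9.04, 7.38, 3.44 and 13.7 RPKM. It was thus lowest in SPH, as CYR61 and F3 were, and highest in METS, unlike them. JUND stood at 43.6, 35.7, 39.7 and 61.0 RPKM, ATF3 at 2.87, 2.06, 1.32 and 3.23, and FOS at 1.94, 2.53, 4.33 and 2.62. Of 12 measured genes of the SRF list, 9 were lower than in DLD1 in METS (median -0.18), 9 in SPH (-0.19) and 9 in SA (-0.12). Over all genes, 54.9% were lower in METS, 43.6% in SPH and 44.4% in SA. Tropomyosin TPM1 stood at 31.7, 19.1, 14.9 and 19.7 RPKM, highest in DLD1 and lowest in SPH, as CYR61 was. The actin crosslinker FLNA (149, 127, 121 and 92.9 RPKM) and the smooth muscle gene TAGLN (1.56, 1.32, 1.25 and 0.53) were lowest in METS, whereas the immediate early gene EGR1 was highest there (40.2, 40.3, 42.2 and 61.1). None of the AP-1 or SRF genes passed either test (limma-trend).

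CTGF and CYR61 are also responsive to TGF-beta, and a list of 8 measured TGF-beta targets was examined beside them. Of these, 3 were lower and 5 higher in METS than in DLD1 (median 0.07). The secreted matrix protein TGFBI stood at 16.5, 13.6, 12.9 and 8.70 RPKM, lowest in METS like CTGF. PMEPA1 stood at 1.35, 1.6, 1.43 and 0.93 RPKM, and BHLHE40 at 6.67, 5.31, 10.6 and 8.22.

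The surface proteins F3 and NT5E belong to pathways of their own. Beside F3, all 5 measured genes of a list of coagulation and urokinase genes were lower in SA and in METS than in DLD1. In SPH, 4 of the 5 were lower. Over all genes, 44.4% were lower in SA, 54.9% in METS and 43.6% in SPH. In METS, 4 of the 5 remained lower with median-of-ratios factors and 3 of the 5 with GC correction. The thrombin receptor F2R stood at 3.90, 2.61, 2.40 and 2.36 RPKM, the protein C receptor PROCR at 12.4, 8.97, 12.6 and 12.3, the urokinase gene PLAU at 3.31, 1.95, 2.25 and 2.67 and its receptor PLAUR at 4.91, 3.45, 4.04 and 4.59. PROCR and PLAUR counted as lower in METS by log2 differences of only -0.005 and -0.08. The tissue factor pathway inhibitor TFPI did not exceed 0.28 RPKM. Around NT5E, which makes adenosine from AMP outside the cell, all 6 measured genes were lower in METS than in DLD1 (median -0.45). With GC correction, 5 of the 6 were. All 6 were also lower in SA (median -0.33) and 4 of 6 in SPH (-0.23), whereas NT5E was slightly higher in both lines. DPP4, which anchors adenosine deaminase, stood at 1.98, 1.28, 2.11 and 0.38 RPKM, lowest in METS as NT5E was (-1.0 ± 0.22 against the 3 other lines, adjusted p = 0.12, limma-trend). DPP4 did not follow NT5E in SA. Nor did the ATP-hydrolysing enzymes ENTPD2 (3.64, 2.81, 4.65 and 2.15 RPKM) and ENTPD3 (2.66, 0.63, 0.46 and 1.07) or the deaminase ADA (2.45, 1.66, 1.82 and 2.27). ENTPD1, the enzyme that often supplies AMP to NT5E, did not exceed 0.08 RPKM. No gene of these lists passed either test (limma-trend).

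Genes whose pattern over the 4 lines was most like CTGF and NT5E were sought among 6993 genes that reached 5 RPKM in a line. Genes with clone-type or LINC names and ribosomal, small and mitochondrial RNA genes had been left out, and ranks are within this set. Likeness was the root-mean-square difference of log2(RPKM + 1) after centring each gene on its mean. Closest to CTGF were SYTL2 (difference 0.055), a synaptotagmin-like RAB27 effector, MORC4 (0.063), TMEM52B (0.065), the membrane skeleton gene EPB41L2 (0.071) and ZFP36L1 (0.075), an mRNA decay factor. SYTL2 stood at 6.78, 7.97, 6.16 and 2.50 RPKM. Of the target genes, ANKRD1 was nearest to CTGF, at rank 9 (0.11), and NT5E stood at rank 38 (0.20), while CYR61 was at rank 5285 (0.57). Closest to NT5E were CD44 (0.093), the hyaluronan receptor, the phosphatase PTPN13 (0.11), the ETS factors ETS2 (0.11) and EHF (0.13) and the microtubule regulator STMN1 (0.14). CD44 stood at 4.37, 5.84, 5.60 and 1.36 RPKM. Likeness over 4 libraries is a description, since many genes share the library in which they are low.

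**Figure D5:**
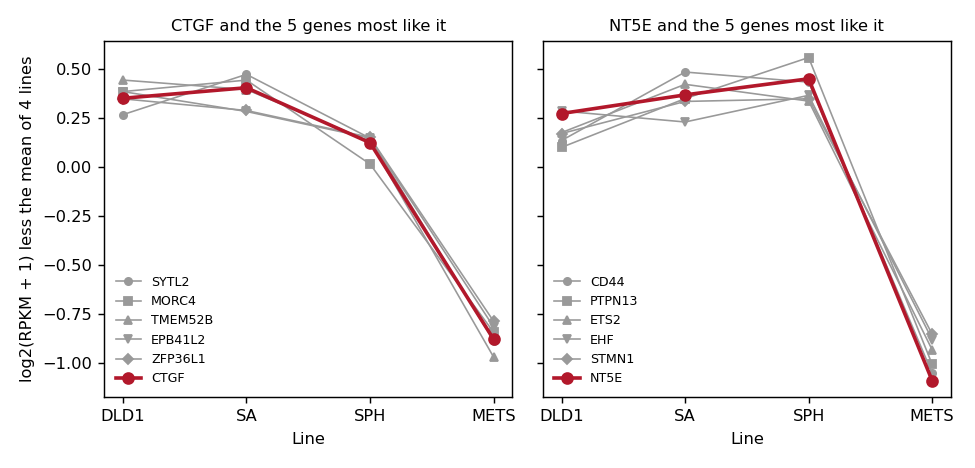
Values of log2(RPKM + 1) less the mean of the 4 lines, for CTGF and NT5E (red) and the 5 genes with the smallest root-mean-square difference from each (grey). Every curve in both panels is lowest in METS, where CTGF stands at 3.38 RPKM and NT5E at 10.8.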

How the data were processed

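Total RNA of 4 lines was sequenced from 1 library each. As deposited by the authors, the table holds 57746 genes to 2 decimals, on build hg19 per the submitters' processing notes. The deposited values were read as RPKM from the values themselves (over 35424 genes with a length in GENCODE 29, values multiplied by kb added up to 942316 to 953048 in each line). The sources used here do not name the aligner, counter, annotation or strand setting. The members and gene lists were chosen with earlier results of these data known.

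Values were used as log2(RPKM + 1). limma-trend (limma 3.58.1, R 4.3.3, Benjamini-Hochberg over all genes) compared SA and SPH with DLD1 and METS (genes of at least 1 RPKM in 2 libraries) and METS with the 3 other lines (at least 1 RPKM in 1 library), and was tested on simulated data. Pairs of lines were compared by a 2-fold rule without a test. Depth was estimated from the spacing of low values of genes of 200 to 500 bases. All 9 members were named, with YAP1, WWTR1 and the TEAD genes, up to 4 genes per list by range over lines or any that passed a test, and the 5 genes most like CTGF and NT5E. The values of 1 gene that this rule names are not reported here. VIM, CDH1, TFPI, ENTPD1, TGFB2 and MYOF were named outside it, after their values were seen. Promoters are RefSeq, GRCh38.p14. Alternatives were pseudocounts of 0.1 and 5, other filters, median-of-ratios factors, limma without trend, a 1.5-fold rule, leaving out each library and, chosen after seeing the data, a lowess correction for GC content (span 0.3). Python 3.11.15, pandas 2.3.3 and statsmodels 0.14.6 were used.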

Additional observations from a re-analysis of the deposited data

How the results depend on the processing

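The 9 genes stayed lower in METS than in DLD1 with pseudocounts of 0.1 and 5, median-of-ratios factors and GC correction, and their median difference stayed within 0.1 of -0.67 in these settings except with a pseudocount of 5 (-0.51). Genes past the class test numbered 40, and 26 with a pseudocount of 0.1, 5 with a minimum of 5 RPKM, 26 with GC correction and 0 with no filter (2208 at an unadjusted p under 0.05, limma). Leaving out single libraries gave 1 to 288, the latter without DLD1, with 1 without SA or SPH and 26 without METS. Genes past the test of METS numbered 92, and 41 with median-of-ratios factors, 27 without the trend, 48 with GC correction and 0 with no filter (2857 at an unadjusted p under 0.05, limma). Single libraries left out gave 0 (SA) to 301 (DLD1), with 294 without SPH. Genes at the 2-fold rule against DLD1, in either direction, numbered 77 in SA, 144 in SPH and 160 in METS. With a pseudocount of 0.1 they became 211, 350 and 368, and with 5 they became 12, 24 and 31. A minimum of 5 RPKM gave 29, 61 and 88, and the 1.5-fold rule gave 321, 524 and 608.

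Log2 differences changed sign only in comparisons that their gene did not pass as reported. In the class test, single libraries left out moved CTGF from -0.086 (METS) to 1.14 (DLD1), CRIM1 from -0.26 to 0.42, AMOTL2 from -0.53 to 0.035, LATS2 from -0.13 to 0.012 and F3 from -0.64 (SA) to 0.025 (SPH). In the test of METS they moved CYR61 from -0.49 (SPH) to 0.13 (DLD1), AJUBA from -0.17 to 0.079 and F3 from -0.40 to 0.050. There AJUBA also turned to 0.010 with median-of-ratios factors and 0.0049 with GC correction, and LATS2 to 0.021 with either. The cause was not tested. No paired analysis was possible because each line has 1 library. With METS left out its own test has no value. Depth limits ANKRD1 most, as the gene with the fewest reads.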
